A study of Mus musculus with 6 samples.

Results

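The adrenergic receptors are the G protein-coupled receptors for noradrenaline and adrenaline. The 8 receptor genes described here are Adra1a, Adra1b and Adra1d (alpha-1), Adra2a, Adra2b and Adra2c (alpha-2), and Adrb1 and Adrb3 (beta). They were taken by gene symbol from a table of 54532 genes, and each symbol matched 1 row. The samples were mouse pancreatic buds explanted at E12.5 and cultured for 2 days in M199 without phenol red, with 10% fetal bovine serum and 0.1% DMSO. The TBZ group (3 libraries) received 0.1 µM tetrabenazine throughout the culture, and the Control group (3 libraries) had DMSO as its only treatment. Tetrabenazine blocks VMAT2, the vesicular monoamine transporter encoded by Slc18a2, and the question was what monoamine handling by VMAT2 does in the developing pancreas. The strain, and whether buds were pooled or came from separate litters, are not given in the sources used here, so the spread between libraries may be technical.

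Alpha-1 receptors act mainly through Gq proteins, phospholipase C and calcium, and are known for contracting vascular smooth muscle. Alpha-2 receptors act through Gi proteins, which lower cyclic AMP; in adult islets Adra2a is the receptor through which noradrenaline restrains insulin release. Beta receptors act through Gs proteins and adenylyl cyclase, which raise cyclic AMP; Adrb1 is the main beta receptor of the heart, and Adrb3 is best known from adipose tissue.

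The counted depth per library was 35.8 to 41.0 megareads in the TBZ group and 41.0 to 50.6 megareads in the Control group. Of 18226 genes tested, 34 changed (0.187%; edgeR quasi-likelihood test, Benjamini-Hochberg adjusted p under 0.05), 28 higher (0.154%) and 6 lower (0.0329%) in TBZ. The labelled tissue was checked against markers. The 2 most abundant pancreatic epithelium markers, Epcam and Krt8, averaged 167 and 225 FPKM over the 6 libraries, and acinar and endocrine markers were also present. Of 88 marker tests in 12 cell type lists, 4 passed the edgeR test, all of them acinar genes that rose (Cpa1, Cel, Pnliprp1 and Bhlha15), and 11 lists had none. No marker of the adipocyte list was above 0.452 FPKM as a mean over the libraries, and 2 of its 7 genes had no read. Control replicate 3 stood apart in the stomach and oesophagus list, which summed to 5.41, 8.87 and 4.16 FPKM in TBZ replicates 1 to 3 and to 6.58, 6.38 and 30.1 FPKM in Control replicates 1 to 3. There Pitx1 was at 17.9 FPKM, Sox2 at 6.17 FPKM and Krt5 at 2.76 FPKM, while Tff1 of that list had no read in any library; of its 7 tested genes 5 had a log2 fold change below 0 and none passed the edgeR test.

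The sequences that can be confused between receptors were looked at first, because the counts below depend on reads being given to the right family member. In GENCODE M21 transcripts, the longest run of bases shared by any 2 of the 8 genes (28 pairs, both strands) was 30 bases, with a median of 15 bases, against reads of 150 bases. The longest runs are shown for the beta pair and for 2 alpha-2 pairs.
Adrb1 and Adrb3: tgctggctgcccttcttcctggccaacgtg
Adra2a and Adra2c: gagtacaacctgaagcgcacgccgcg
Adra2b and Adra2c: tccatcgtgcacctgtgtgccat
Overlapping annotation touched 2 of the genes. Adra1d overlaps an antisense gene over 670 bases, which had 4 counted reads in all 6 libraries together, and Adrb3 overlaps another over 11647 bases, with 80 counted reads. These overlaps are of whole gene spans, introns included, and overlap of exons was not looked at. Whether the counting used strand is not given in the sources used here. Whether antisense reads entered the Adrb3 counts was therefore not tested.

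The start regions of the highest and the lowest of the 8 genes are shown because these 2 alpha-2 genes mark the ends of the range of levels. They are RefSeq windows of 300 bases (GRCm38.p6), from 250 bases before the annotated start to 50 bases after it, printed 5′ to 3′ on the gene's strand; a window was found for 5 of the 8 genes. Capitals mark TGACG, the core of the cyclic AMP response element, and the TATA box TATAAA, each searched on both strands.
Adra2a, chr19:54045009-54045308, plus strand: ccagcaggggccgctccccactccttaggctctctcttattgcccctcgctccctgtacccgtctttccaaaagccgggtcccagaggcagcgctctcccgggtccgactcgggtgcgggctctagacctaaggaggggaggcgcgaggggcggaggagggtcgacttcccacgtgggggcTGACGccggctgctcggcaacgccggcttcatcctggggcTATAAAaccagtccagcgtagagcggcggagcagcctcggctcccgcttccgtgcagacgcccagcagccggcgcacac
Adra2c, chr5:35278316-35278615, plus strand: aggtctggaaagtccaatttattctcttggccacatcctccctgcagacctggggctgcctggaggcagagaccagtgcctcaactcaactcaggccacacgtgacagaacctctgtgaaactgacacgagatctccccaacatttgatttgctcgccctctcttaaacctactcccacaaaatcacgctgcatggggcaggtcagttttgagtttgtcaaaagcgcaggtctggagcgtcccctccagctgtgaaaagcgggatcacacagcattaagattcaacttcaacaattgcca
The Adra2a window was GC-rich at 68.7%, with 28 CpG sites. It held 1 TGACG and 1 TATAAA, which began at position -29 from the start. The Adra2c window had a GC content of 51.3% and 7 CpG sites, close to the median window (52.7% GC, 7 CpG sites), and held neither motif. Of 32851 windows of this length, 20.8% held TGACG and 13.6% held TATAAA. The full element TGACGTCA was in neither window and in 1.79% of all windows. The deposited gene models begin inside both windows, for Adra2c within the first few bases, so the annotated start differs between the 2 sources.

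All 8 receptor genes were detected in every library at low levels, and Adra2a stood above the others. The values are the deposited FPKM, reads scaled to gene length and library size, which allow genes to be compared. Over the 6 libraries Adra2a averaged 3.75 ± 0.321 FPKM (SD, n = 6), 3.86-fold above the next gene, and 58.0% of protein-coding genes had a lower mean. Adrb1 followed at 0.970 ± 0.205 FPKM, then Adra1b at 0.812 ± 0.137, Adra1d at 0.588 ± 0.148, Adrb3 at 0.502 ± 0.0977, Adra2b at 0.456 ± 0.0528 and Adra1a at 0.360 ± 0.0668 FPKM (SD, n = 6 each). Adra2c was last at 0.0970 ± 0.0396 FPKM (SD, n = 6), a level above that of 31.5% of protein-coding genes. Only 2 steps in this order were larger than the spread over libraries, that from Adra2a to Adrb1 and that from Adra1a to Adra2c (3.71-fold). At every other step the ranges of the neighbours overlapped, although Adra1b was above Adra1d, and Adra2b above Adra1a, in 6 of 6 libraries.

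**Figure D1:**
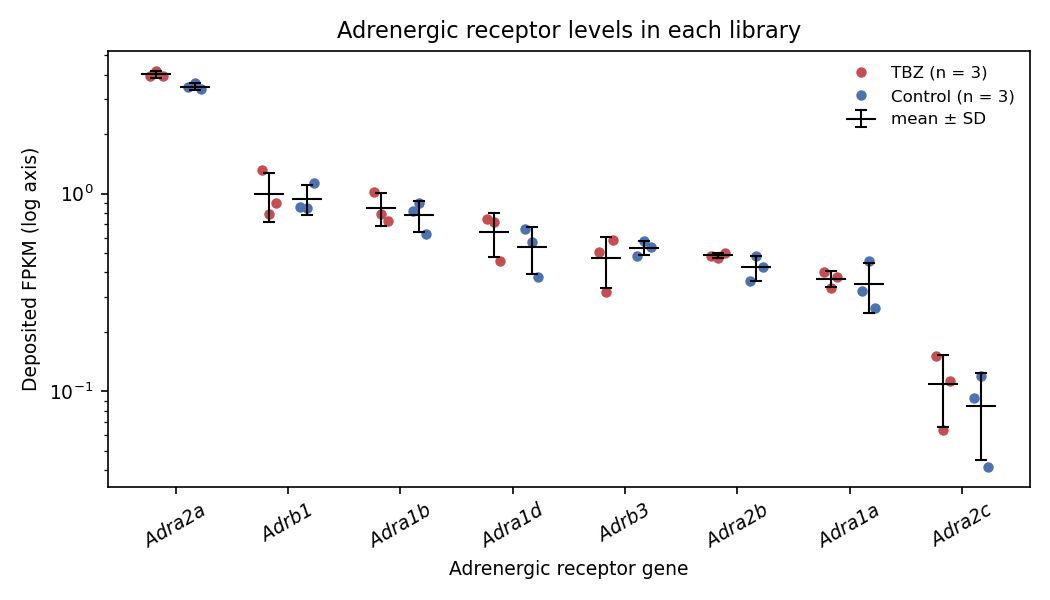
Deposited FPKM (log axis) of the 8 adrenergic receptor genes, ordered by their mean over all libraries. Points are libraries, TBZ left of Control for each gene, and bars are the mean ± SD of 3 libraries. Adra2a lies between 3.36 and 4.19 FPKM and Adra2c between 0.0416 and 0.151 FPKM, with the other 6 genes between.

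The place of Adra1a depended on the gene length behind its FPKM. The authors used 8728 bases, all exons of 6 annotated transcripts together, while its principal GENCODE transcript is 4282 bases long. With that length, an alternative chosen after seeing the data, its mean was 0.733 FPKM and its place the fourth in place of the seventh. The same step moved Adrb3, whose principal transcript has 2795 of 3376 bases, to 0.606 FPKM. Adra2c kept the last place. For Adra2a and Adrb1 the principal transcripts, of 4832 and 2952 bases, are longer than the deposited lengths of 3801 and 2491 bases. The deposited lengths were kept for both genes, so this step did not test their first and second places.

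Adra2a made up 50.8 ± 4.38% of the summed FPKM of the 8 genes in TBZ libraries and 48.9 ± 0.928% in Control libraries (SD, n = 3 each). With Adra2b and Adra2c, the alpha-2 genes summed to 4.61 ± 0.103 FPKM in TBZ and 3.99 ± 0.209 FPKM in Control libraries (SD, n = 3 each), which was 58.3 ± 4.30% and 56.0 ± 0.594% of the total over the 8 genes. The alpha-1 genes summed to 1.86 ± 0.303 FPKM in TBZ and 1.66 ± 0.345 FPKM in Control libraries. The beta genes summed to 1.47 ± 0.355 FPKM in TBZ and 1.48 ± 0.170 FPKM in Control libraries (SD, n = 3 each). The beta pair held 18.4 ± 3.56% of the 8-gene total in TBZ and 20.8 ± 3.30% in Control libraries. These shares are of the 8 genes described here, not of the whole receptor family.

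None of the 8 receptor genes passed the edgeR test for a difference between TBZ and Control, at a background of 0.187% of all tested genes. All 8 had passed the filter on low counts. Adra2a alone had an unadjusted p under 0.05, as did 9.61% of tested genes. DESeq2 gave no adjusted p for Adra2c and called 0 of the other 7, at a background of 1.43% of the genes to which it gave an adjusted p. With limma on log2(FPKM + 0.5), 0 of the 8 were called, at a background of 13 of 18226 tested genes. The authors' deposited table has 0 of the 8 under an adjusted p of 0.05 (background 0.767%) and Adra2a alone under an unadjusted p of 0.05 (background 5.1%). It holds an adjusted p for Adra2c too, and for 28930 genes in all, against 15527 with DESeq2, so the 2 background shares have unlike bases. It calls 222 genes, as DESeq2 did here, and the log2 fold change of Adra2a is 0.2069 in both, so they are not separate checks. Of the log2 fold changes 7 were above 0 and 1, that of Adrb3, below, with a median of 0.16; over all tested genes 50.1% were above 0 and the median was 0.00. Because each library is bulk RNA of a whole bud culture, fewer cells of a type and less RNA per cell cannot be told apart in any of these values.

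**Figure D2:**
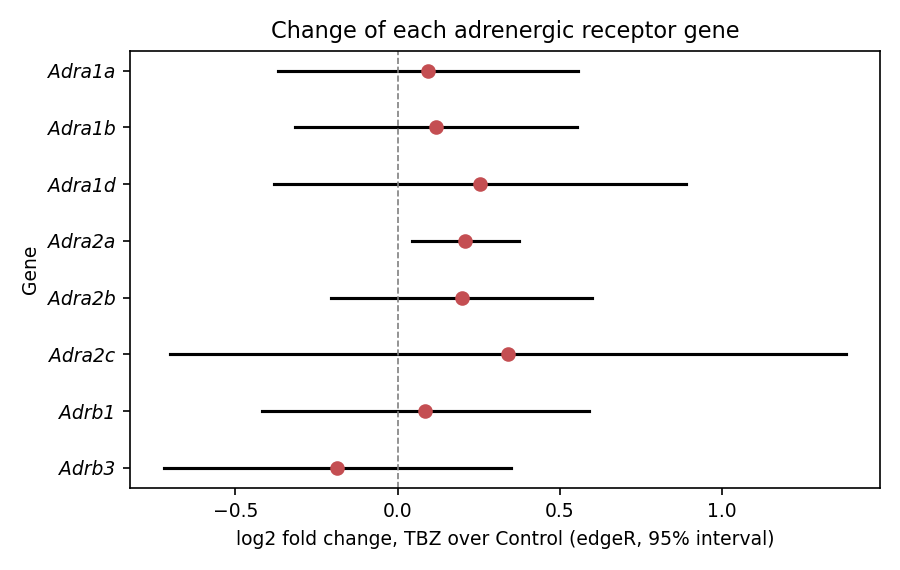
Log2 fold change of each receptor gene, TBZ over Control, from the edgeR fit (n = 3 libraries each), with its 95% interval as a line. The interval of Adra2a runs from 0.04 to 0.37; those of the other 7 genes include 0, and that of Adra2c is the widest, from -0.70 to 1.38.

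Adra2a (ENSMUSG00000033717) is a gene with 1 exon on chromosome 19, from 54045182 to 54048982 on the plus strand (mm10, as deposited). It stood at 3.93, 4.19 and 3.93 FPKM in TBZ replicates 1 to 3, against 3.45, 3.62 and 3.36 FPKM in Control replicates 1 to 3. All 3 TBZ libraries were above all 3 Control libraries, a pattern shown by 8.47% of tested genes in this direction and 15.5% in either. The log2 fold change was 0.21 ± 0.07 (SE), a 1.16-fold difference with a 95% interval from 1.03 to 1.30, at an edgeR adjusted p of 0.403 and an unadjusted p of 0.0189. By its unadjusted p it was the gene in place 847 of 18226. The authors' deposited table gives a log2 fold change of 0.21 with a p of 0.0350 and an adjusted p of 0.513. Its spread within groups was close to counting error: the coefficient of variation was 3.77% in TBZ and 3.75% in Control libraries, where the mean counts of 597 and 617 reads alone would give 4.09% and 4.02%.

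Among markers of the pancreatic epithelium and its cell types, only acinar genes passed the edgeR test. Of 8 pancreatic epithelium markers 7 had a log2 fold change above 0 and none passed, with overlapping sums of 758 to 842 FPKM in TBZ and 701 to 766 FPKM in Control libraries. For 4 of them (Cdh1, Pdx1, Nkx6-1 and Sox9) all TBZ libraries were above all Control libraries, as for 8.47% of tested genes. The groups overlapped for the rest of the list. The 6 acinar markers, all above 0 and 4 of them past the edgeR test, summed to 5261 to 6569 FPKM in TBZ and 3503 to 4326 FPKM in Control libraries. Of 10 endocrine markers 9 were above 0 and none passed, with sums of 226 to 353 FPKM in TBZ and 218 to 265 FPKM in Control libraries. No gene of these lists was at 0 in all libraries, and their part in the Adra2a values was not tested.

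The other alpha-2 genes, also with 1 exon in their principal transcripts, were at lower levels than Adra2a. Adra2b (ENSMUSG00000058620, chromosome 2, 127363208 to 127367221, plus strand) stood at 0.486, 0.476 and 0.50 FPKM in TBZ replicates 1 to 3 and at 0.361, 0.485 and 0.428 FPKM in Control replicates 1 to 3. Control replicate 2 reached the level of the TBZ libraries, and the groups overlapped. The log2 fold change was 0.20 ± 0.18 (SE; edgeR adjusted p = 0.764). Adra2c (ENSMUSG00000045318, chromosome 5, 35278319 to 35281763, plus strand) had 21, 9 and 14 reads in TBZ replicates 1 to 3 and 15, 21 and 6 reads in Control replicates 1 to 3. At this depth single values carry wide counting errors, with exact Poisson 95% intervals of 13.0 to 32.1 for 21 reads and 2.20 to 13.1 for 6 reads, which cover counting error only. Its log2 fold change of 0.34 ± 0.46 (SE; edgeR adjusted p = 0.856) has a 95% interval that reaches 2.61-fold, and differences within it were not detectable at this depth.

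Among the alpha-1 genes, Adra1b was the highest on the deposited lengths. Adra1b (ENSMUSG00000050541, chromosome 11, 43774606 to 43901210, minus strand, 5 exons in its principal transcript) stood at 1.02, 0.789 and 0.726 FPKM in TBZ replicates 1 to 3 and at 0.813, 0.895 and 0.628 FPKM in Control replicates 1 to 3. The groups overlapped, and the log2 fold change was 0.12 ± 0.19 (SE; edgeR adjusted p = 0.882). Adra1d (ENSMUSG00000027335, chromosome 2, 131545850 to 131562283, minus strand, 2 exons) stood at 0.742, 0.722 and 0.455 FPKM in TBZ and at 0.662, 0.570 and 0.377 FPKM in Control replicates 1 to 3. Within each group replicate 3 was the lowest, and the log2 fold change was 0.25 ± 0.28 (SE; edgeR adjusted p = 0.814). Adra1a (ENSMUSG00000045875, chromosome 14, 66635251 to 66771168, plus strand, 3 exons) stood at 0.402, 0.334 and 0.380 FPKM in TBZ and at 0.322, 0.455 and 0.265 FPKM in Control replicates 1 to 3. The Control group spanned the whole TBZ range, and the log2 fold change was 0.09 ± 0.21 (SE; edgeR adjusted p = 0.921). Its coefficient of variation was 9.39% in TBZ libraries, near the 8.89% that counting alone would give, and 28.0% in Control libraries, against 8.34% from counting.

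The alpha-1 genes shared a low point in Control replicate 3, the library with the high stomach and oesophagus markers. That library had the lowest scaled level of 5 receptor genes, the 3 alpha-1 genes with Adra2a and Adra2c, while 24.3% of all tested genes were lowest there. TBZ replicate 1 had the highest level of 4 receptor genes (Adra1b, Adra1d, Adra2c and Adrb1), as it did for 16.3% of tested genes. The neuron and chromaffin markers also had their highest sum in Control replicate 3, at 64.1 FPKM against 55.7 to 56.1 FPKM in the other Control libraries. The part of this list or of the stomach and oesophagus list in the receptor values was not tested. Without Control replicate 3 the log2 fold change of Adra1a was -0.06 and that of Adra1b -0.01, while Adra1d was at 0.07 and Adra2c at 0.04. Adra2a was at 0.19 without that library (edgeR adjusted p = 0.512). Without TBZ replicate 1 the value of Adra1b was -0.04, so that the sign of the Adra1a and Adra1b differences rests on single libraries.

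Patterns over the 6 libraries were compared with those of 177 tested pathway and marker genes, by the root mean square difference of log2 CPM (read counts scaled to library size), each gene centred on its own mean. The nearest to Adra1b were Myh11, the smooth muscle myosin heavy chain, at 0.07 log2 units, and Akap12, a scaffold of protein kinase A, at 0.08, where Adra1b itself varied by 0.22 around its mean. Myh11 was also the nearest to Adra1d (0.19), followed by the pericyte proteoglycan gene Cspg4 (0.24), and Akap12 and Rgs4 were the nearest to Adra1a (0.14 and 0.15). In CPM, Myh11 was at 244, 192 and 178 in TBZ replicates 1 to 3 and 191, 191 and 139 in Control replicates 1 to 3. The 2 most abundant genes of the smooth muscle and pericyte list differed in Control replicate 3. Acta2 stood at 688, 698 and 630 FPKM in Control replicates 1 to 3, and Mcam at 61.9, 66.1 and 65.1 FPKM. The smooth muscle and pericyte list as a whole had 7 of 11 genes above 0, none past the edgeR test, and sums of 862 to 1144 FPKM in TBZ and 859 to 957 FPKM in Control libraries, with no gene at 0 in all libraries; its part in the alpha-1 values was not tested. Prkar2b, a regulatory subunit of protein kinase A, lay 0.08 from Adra2a, which itself varied by 0.11. Adra2b lay nearest to Prkar1b (0.10) and the endothelial gene Esam (0.11). The nearest genes to Adra2c were Gcg (0.33) and Tagln (0.35), the nearest to Adrb1 was Slc18a1 (0.16), and the nearest to Adrb3 were Grk4 (0.22) and Sst (0.23). These distances describe 6 libraries and grow with the counting error of the receptor gene. Each nearest gene was picked from the 177 on these same values. The median distance over the 177 was 0.24 log2 units for Adra1b, 0.36 for Adra1d and 0.27 for Adra1a.

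**Figure D3:**
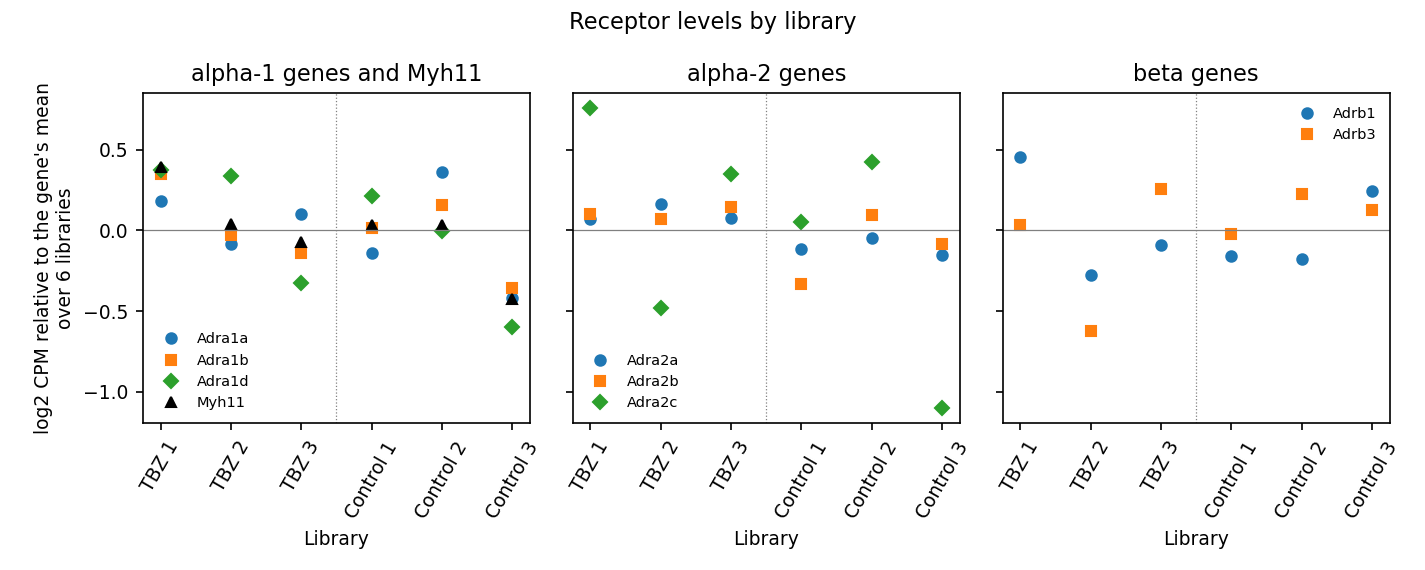
Log2 CPM of the receptor genes in each library, as the difference from each gene's own average, TBZ libraries left of the dotted line and Control libraries right of it. The alpha-1 panel also shows Myh11, picked as the nearest to Adra1b of 177 genes on these same values; in Control replicate 3 it is at -0.43 and the alpha-1 genes lie between -0.60 and -0.35.

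The beta receptor genes showed no shift in common. Adrb1 (ENSMUSG00000035283, chromosome 19, 56722372 to 56724862, plus strand, 1 exon) stood at 1.31, 0.786 and 0.896 FPKM in TBZ replicates 1 to 3 and at 0.855, 0.845 and 1.13 FPKM in Control replicates 1 to 3. Its highest and its lowest value were both in TBZ libraries, and the log2 fold change was 0.09 ± 0.22 (SE; edgeR adjusted p = 0.933). Without TBZ replicate 1 it was -0.16. Adrb3 (ENSMUSG00000031489, chromosome 8, 27225776 to 27250616, minus strand, 4 exons) stood at 0.505, 0.319 and 0.586 FPKM in TBZ and at 0.486, 0.577 and 0.537 FPKM in Control replicates 1 to 3. The single low value was that of TBZ replicate 2, with 44 reads, and the log2 fold change was -0.19 ± 0.24 (SE; edgeR adjusted p = 0.845). Without that library it was 0.03. For the brown and white fat receptor Adrb3, the fat cell genes of the adipocyte list summed to 0.443 to 0.557 FPKM in TBZ and 0.455 to 0.577 FPKM in Control libraries, and 6 of the 7 were too low to be tested.

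The intervals set what these libraries could have shown. For the 7 genes other than Adra2c the upper end of the 95% interval lay between 1.27-fold for Adrb3 and 1.85-fold for Adra1d, and the lower end between 0.607-fold for Adrb3 and 1.03-fold for Adra2a. Larger differences lie outside the intervals, and the wide intervals leave differences of up to these sizes unresolved at this depth and number of libraries.

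The genes that make, store and clear the receptors' ligands were unequal in level, and none of the 12 tested passed the edgeR test. Th, whose product makes L-DOPA in the first step, stood at 0.586, 0.280 and 0.484 FPKM in TBZ replicates 1 to 3 and at 0.424, 0.416 and 0.394 FPKM in Control replicates 1 to 3. Ddc, the decarboxylase of the second step, was higher at 11.5 ± 0.723 FPKM in TBZ and 9.94 ± 0.707 FPKM in Control libraries (SD, n = 3 each; log2 fold change 0.21 ± 0.07 SE, edgeR adjusted p = 0.325). It was the 1 gene of 6 tested for synthesis and storage with groups that did not overlap, against 15.5% of all tested genes. Dbh, which turns dopamine into noradrenaline, had 8, 6 and 7 reads in TBZ libraries and 6, 11 and 23 reads in Control libraries, too few for the filter, with its highest value in Control replicate 3. Pnmt, which makes adrenaline, had 4, 1 and 0 reads in TBZ libraries and 2, 1 and 1 in Control libraries. Cyb561, which supplies electrons to Dbh in the vesicle, stood at 9.80 ± 0.710 FPKM in TBZ and 9.90 ± 0.676 FPKM in Control libraries (SD, n = 3 each). Slc18a2, the target of tetrabenazine, stood at 2.13 ± 0.356 FPKM in TBZ and 2.30 ± 0.0342 FPKM in Control libraries (SD, n = 3 each; log2 fold change -0.11 ± 0.12 SE, edgeR adjusted p = 0.814).

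On the clearing side the noradrenaline transporter gene Slc6a2 was also too low to be tested, with 5 to 7 reads in TBZ and 7 to 17 reads in Control libraries. Maoa, which encodes a degrading monoamine oxidase, was at 10.8 ± 0.360 FPKM in TBZ and 11.1 ± 0.194 FPKM in Control libraries (SD, n = 3 each; edgeR adjusted p = 0.858). Sympathetic neuron and chromaffin markers, cells that make noradrenaline, had 7 of 9 tested genes with a log2 fold change below 0 (median -0.33), and none passed the edgeR test. They summed to 51.2 to 55.2 FPKM in TBZ and 55.7 to 64.1 FPKM in Control libraries, no gene of the list was at 0 in all libraries, and its part in the values of Dbh and Slc6a2 was not tested.

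**Figure D4:**
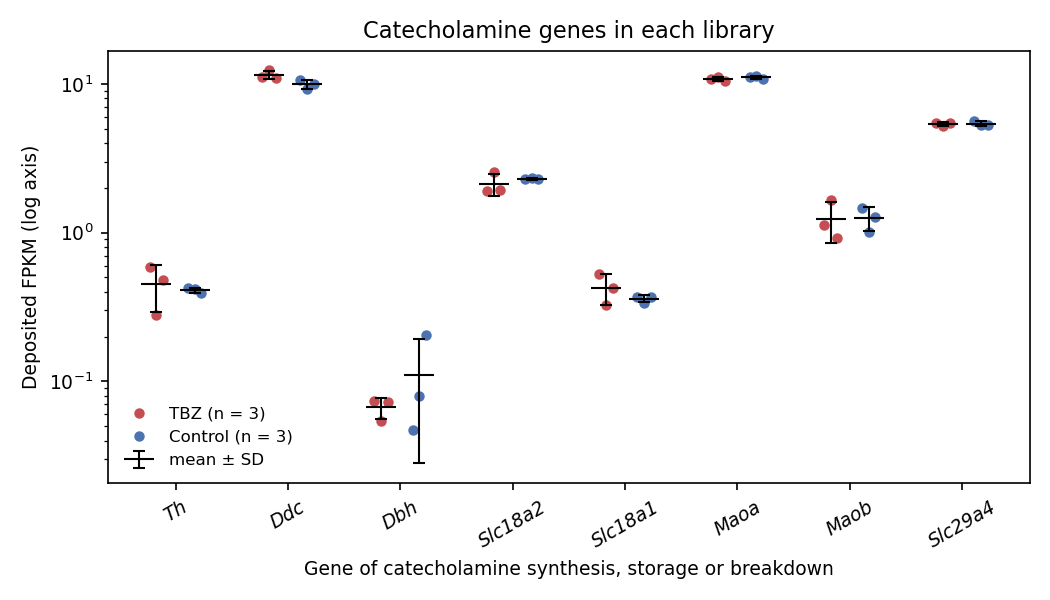
Deposited FPKM (log axis) of genes of catecholamine synthesis (Th, Ddc, Dbh), vesicular storage (Slc18a2, Slc18a1), breakdown (Maoa, Maob) and uptake (Slc29a4). Points are libraries, TBZ left of Control, and bars are the mean ± SD of 3 libraries; Ddc averages 11.5 FPKM in TBZ and 9.94 FPKM in Control libraries, while Dbh is between 0.0475 and 0.204 FPKM.

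Of 96 genes in 8 pathway lists, which cover the handling of the ligands as well as the steps downstream of the receptors, 90 were tested, and none passed the edgeR test. DESeq2 gave an adjusted p to 89 of the 96 and called none. At an unadjusted p under 0.05 there were 6 (6.67%, against 9.61% of all tested genes), and the median log2 fold change was 0.02. Of 6 tested synthesis and storage genes 4 were above 0 (median 0.07), and of 6 uptake and breakdown genes 1 was (median -0.02). Among 9 G protein alpha subunit genes 7 were above 0 (median 0.04); the Gi genes Gnai2 and Gnai3 were the highest. Gnai2 stood at 99.9 ± 3.41 FPKM in TBZ and 99.4 ± 1.23 FPKM in Control libraries, and Gnai3 at 94.8 ± 1.35 FPKM in TBZ and 92.1 ± 2.68 FPKM in Control libraries (SD, n = 3 each). Among 17 genes of adenylyl cyclases, protein kinase A and Epac 14 were above 0 (median 0.02), with the kinase subunits Prkar1a at 111 ± 0.862 FPKM in TBZ and 110.0 ± 1.92 FPKM in Control libraries and Prkaca at 62.2 ± 1.72 FPKM in TBZ and 61.6 ± 2.14 FPKM in Control libraries (SD, n = 3 each).

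Of 13 cyclic AMP phosphodiesterase genes, which end the signal, 11 were above 0 (median 0.03), led in level by Pde7a at 7.11 ± 0.224 FPKM in TBZ and 7.07 ± 0.0709 FPKM in Control libraries, and by Pde3a at 6.92 ± 0.184 FPKM in TBZ and 6.76 ± 0.984 FPKM in Control libraries (SD, n = 3 each). Pde8b, chosen after its values were seen, stood at 1.95 ± 0.165 FPKM in TBZ and 1.51 ± 0.0797 FPKM in Control libraries (SD, n = 3 each). Its log2 fold change was 0.37 ± 0.09 (SE; edgeR adjusted p = 0.222). It was the 1 gene of the 13 with groups that did not overlap, against 15.5% of all tested genes. The phospholipase C arm had 6 of 11 genes above 0 (median 0.02), with Plcb3 the highest at 22.0 ± 0.798 FPKM in TBZ and 22.4 ± 0.617 FPKM in Control libraries. The calcium channel gene Itpr3 followed at 14.8 ± 1.30 FPKM in TBZ and 13.0 ± 1.74 FPKM in Control libraries (SD, n = 3 each). The receptor kinases, arrestins, anchoring and RGS genes that end or shape receptor signalling had 6 of 14 above 0 (median -0.01), with Slc9a3r1 and Akap12 the highest. Slc9a3r1 stood at 70.8 ± 2.32 FPKM in TBZ and 71.4 ± 6.64 FPKM in Control libraries, and Akap12 at 53.6 ± 6.50 FPKM in TBZ and 51.4 ± 7.66 FPKM in Control libraries (SD, n = 3 each).

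Of 14 tested genes of the cyclic AMP response list 7 were above 0 and 7 below. The list holds factors that carry the signal, such as Atf1, as well as genes that it induces. Sik1, a kinase gene that CREB induces, stood at 9.34, 9.56 and 9.25 FPKM in TBZ replicates 1 to 3 and at 11.1, 10.8 and 10.8 FPKM in Control replicates 1 to 3. The TBZ libraries were all below the Control libraries. Of the 14 genes 2 had groups that did not overlap, Sik1 among them, against 15.5% of all tested genes. The log2 fold change was -0.21 ± 0.04 (SE; edgeR adjusted p = 0.124), and with no filter on low counts the adjusted p was 0.0459, so that this gene alone passed among the 96 pathway genes in that fit, at a background of 1.42% of the 31250 genes it tested. DESeq2 gave an adjusted p of 0.0617. All other alternative fits gave Sik1 a higher adjusted p, from 0.126 (edgeR with RLE scaling) to 0.469 (edgeR without TBZ replicate 3). Atf1, the other of the 2 most abundant genes of that list, stood at 21 ± 0.329 FPKM in TBZ and 21.2 ± 0.858 FPKM in Control libraries (SD, n = 3 each).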

How the data were processed

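Poly-A RNA of 6 pancreatic bud cultures was sequenced from both fragment ends. The aligner STAR, the counter HTSeq and the build mm10 are those named in the submitters' processing notes; versions are not given in the sources used here. The deposited table holds whole-number read counts with no normalization and FPKM values that the authors scaled by gene length and library size. It also holds the authors' group means of normalized counts (a signal), their log2 fold changes and their p-value and adjusted p-value columns; the tool is not given in the sources used here.

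Counts were tested with edgeR 4.0.16 (R 4.3.3): TMM scaling, filterByExpr with a minimum count of 10, the quasi-likelihood F-test, two-sided, and Benjamini-Hochberg adjustment over 18226 genes. Each SE was obtained by dividing the size of the log2 fold change by the root of F. Alternatives were DESeq2 1.42.0, RLE scaling, a fit without the filter, a replicate block, limma 3.58.1 on log2 FPKM with pseudocounts of 0.1, 0.5 and 1, and leaving out each library. Fits were tested on simulated data. The genes named are the 8 receptors, Slc18a2, called list genes or else the 2 most abundant tested genes of a list, and the 2 patterns nearest to each receptor. Th, Dbh, Pnmt, Slc6a2 and Pde8b lie outside this rule and were chosen after their values were seen. The most abundant markers of most other cell types are given only through their lists. Members and lists were chosen with earlier results of these data known. Left unreported are a further receptor gene of the family and 2 genes picked by this rule.

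Adra2a and Adrb1 had other boundaries in GENCODE M21 than in the deposited table, and the other 6 genes the same.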

Additional observations from a re-analysis of the deposited data

How the results depend on the processing

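No receptor gene passed under any of the 14 alternative fits, whose adjusted p-values were 0.406 or higher; DESeq2 gave none for Adra2c. Of 112 log2 fold changes (8 genes in 14 fits) 107 kept their sign. The 5 reversals came from leaving out a library. Over the fits that leave one out, Adra1a ranged from -0.062 (without Control replicate 3) to 0.34, Adra1b from -0.043 (without TBZ replicate 1; -0.0084 without Control replicate 3) to 0.23, Adrb1 from -0.16 (without TBZ replicate 1) to 0.24, and Adrb3 from -0.37 to 0.034 (without TBZ replicate 2). Over all 14 fits Adra2a ranged from 0.16 to 0.24.

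The count over all genes, 34 with edgeR as described, was 222 with DESeq2, 445 with no filter, 13, 14 and 4 with limma on log2 FPKM with pseudocounts of 0.5, 0.1 and 1, and 0 with limma and no filter; it was 5 to 36 when a library was left out, with 11 without TBZ replicate 1, 5 without TBZ replicate 3 and 13 without Control replicate 2. The cause of these differences was not tested. Among the pathway genes 1, Sik1, passed with no filter. With the length of the principal transcript Adra1a was at 0.733 and Adrb3 at 0.606 FPKM.

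The replicate block left 5 genes called and none of the receptors. Same-numbered libraries did not deviate together (correlations of 0.00, -0.15 and -0.08 for numbers 1 to 3), so they were not treated as pairs. With 3 libraries per group these correlations cannot show whether same-numbered cultures were set up together. Depth limits Adra2c most, at 6 to 21 reads per library.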
